A study of Mus musculus with 29 samples.

Results

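The change in the left ventricle of wild-type (WT) mice between 12 and 21 months of age was described from 9 mice, 5 labelled Old (21 months) and 4 labelled middle age (MA, 12 months), among the 29 mice of the series. They were all of the samples with these labels, and every array probe that passed the detection filter was compared. All were female C57BL/6N mice with an intact Rage gene. They were anaesthetized with ketamine and medetomidine before perfusion, and no other treatment is described. RNA came from the left ventricle. The Old mice carry the numbers 2 to 6 and the MA mice the numbers 1 to 4. Each mouse gave 1 array, so that the mouse is the unit of every comparison. The SE of a difference below comes from the residual spread in 1 fit of all 29 mice, not from these 9 mice alone. The other groups were 5 WT mice of 10 weeks (Young) and mice lacking Rage, the gene of the receptor for advanced glycation end-products, at the same ages. Of those, the 4 MA and the 6 Old Rage-/- mice are used below. No probe of the tested set was annotated to Ager, the current symbol of Rage, so the genotype could not be checked on the arrays.

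The ageing left ventricle is known for larger cardiomyocytes, more collagen between them and slower relaxation. Relaxation depends on the return of calcium to the sarcoplasmic reticulum by the pump SERCA2, contraction on the sarcomere, and both on ATP from the mitochondria. Fibroblasts lay down the matrix, endothelial cells line the dense capillary bed, and resident macrophages and interferon-responsive genes set the immune tone of the tissue. A set of stress genes, among them the natriuretic peptides and the titin-binding ankyrin repeat proteins, is switched on when the ventricular wall is stretched or overloaded. Ventricular tissue with all of its cell types was measured, so that fewer cells of a type and less RNA per cell cannot be told apart below.

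The arrays of the Old mice differed from those of the MA mice before any gene was considered. A level is given below as log2 intensity after background correction and quantile normalization. The ratio of bright probes to background was 3.75, 2.77, 2.32 and 3.08 in MA mice 1 to 4. It was 3.86, 9.34, 9.58, 9.66 and 10.1 in Old mice 2 to 6. Old mouse 2 thus lay beside the MA mice, and the other 4 Old mice were higher than every MA mouse. The difference between the groups was 1.45 on the log2 scale (exact permutation test over the 9 mice, two-sided, p = 0.0159, the smallest that 5 against 4 mice allow). The number of probes detected was 10550 ± 843 in MA (SD, n = 4) and 13851 ± 1679 in Old (SD, n = 5; exact permutation p = 0.0317). The chip labels show that the 4 MA mice were on 1 BeadChip, that Old mouse 2 was on another of the same barcode series, and that Old mice 3 to 6 were on 2 BeadChips of a second series that held 6 of the 29 arrays. No BeadChip held both an Old and an MA WT mouse, so BeadChip and age cannot be told apart directly. The first 5 surrogate variables, estimated from the values of all 29 arrays, were therefore part of the fit. The study also adjusted for 5, which it associated with technical variability, but the estimate here was made anew. The estimate started from residuals within the groups and then used the values themselves, weighted towards probes unrelated to the groups. The first variable had a correlation of -0.96 with the log2 ratio of signal to background over the 29 arrays. Group accounted for 47.2% of its variation and BeadChip for 72.6%. The adjustment can thus also take out part of a difference with age, and how much was not tested. In what follows a difference is Old minus MA on the log2 scale from this fit, and the levels of single mice are those before adjustment.

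**Figure D1:**
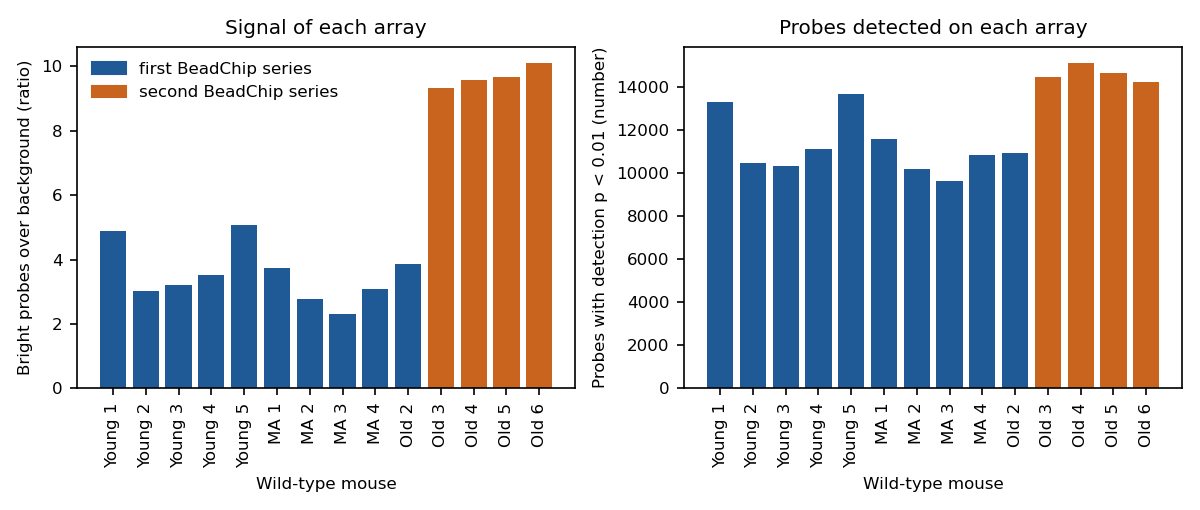
Ratio of bright probes to background (left) and number of detected probes (right) on the array of each WT mouse, shown as bars, with the first BeadChip series in blue and the second in orange. Old mice 3 to 6, at 9.34 to 10.1, stand above the other WT mice, while Old mouse 2, at 3.86, lies among the Young and MA mice.

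With the surrogate variables, 2 of the 13277 probes tested were called at an adjusted p < 0.05 (limma, Benjamini-Hochberg over all probes), or 0.0151%, and both were lower in Old. At an unadjusted p < 0.05 there were 1459 probes, or 11%, of which 689 (5.19%) were higher and 770 (5.8%) lower. When the same fit was made on the normalized values deposited by the authors, 20 probes were called (0.151%), 6 higher (0.0452%) and 14 lower (0.105%), and they included both of the former. Among all probes, 2642 (19.9%) had unadjusted levels that did not overlap between the 5 Old and the 4 MA mice, so that groups standing apart are common here and are given below as a description.

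Gdpd5, which encodes the glycerophosphodiester phosphodiesterase GDE2, had levels of 6.96, 7.0, 7.42 and 7.25 in the MA mice and 5.09, 6.10, 5.97, 5.91 and 6.04 in the Old mice. Every Old mouse lay below every MA mouse, and the lowest was Old mouse 2, in which the probe was not detected. Gdpd5 fell by 1.19 (SE 0.20, limma adjusted p = 0.0432) and, in the authors' values, by 0.21 (adjusted p = 0.037). Old mouse 2 alone read below all MA mice of its own barcode series, at background, so that no fold is given for it. With BeadChip as a random block the difference was -1.10, but with BeadChip as a fixed block, which reaches WT only through the BeadChips shared with other groups, it was 0.09. Young WT mice had a mean level of 6.79, and in Rage-/- mice Gdpd5 differed by -0.70 from MA to Old, a difference that was not called. Without Old mouse 2 the WT difference was -0.72 (adjusted p = 0.454).

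The second called probe was for Abhd18, a member of the alpha/beta hydrolase domain family. Its levels were 7.03, 6.69, 6.39 and 6.83 in MA and 5.51, 6.58, 6.52, 6.69 and 6.52 in Old, and the groups overlapped. After adjustment for the surrogate variables the probe fell by 1.46 (SE 0.25, limma adjusted p = 0.0432). Without surrogate variables the difference was only -0.37, so this call rests on the adjustment. A brighter probe of Abhd18 differed by -0.77 (SE 0.26, adjusted p = 0.279). Leaving out single WT mice moved the called probe of Abhd18 from -1.55 to -1.26. Both calls, on Gdpd5 and on Abhd18, remained when MA mouse 1 was left out and were lost when any 1 of the other 8 mice was, with adjusted p from 0.0665 to 0.454.

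Among the 6 probes that were called higher in the authors' values, 1 belonged to Ankrd1, the cardiac ankyrin repeat protein CARP, which binds the titin filament at the I-band and is a classical marker of wall stress. This Ankrd1 probe read 10.68, 9.84, 9.35 and 9.66 in MA and 11.30, 12.40, 12.60, 12.47 and 11.96 in Old. All 5 Old mice were above all 4 MA mice, and Old mouse 2 was the lowest of the 5. In the authors' values Ankrd1 rose by 1.01 (limma adjusted p = 0.0342), whereas in the values normalized here the difference was 1.03 (SE 0.21, adjusted p = 0.122). Old mouse 2 alone differed by 1.42 from the MA mice, and the difference with a random BeadChip block was 1.97. The brighter of the Ankrd1 probes read 12.66 to 13.06 in MA and 13.05 to 13.70 in Old and differed by 0.57 (SE 0.21, adjusted p = 0.31). In Rage-/- mice the same 2 probes differed by 0.07 and -0.43.

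Ankrd23, which encodes the related diabetes-related ankyrin repeat protein of the same titin-binding family, moved like Ankrd1 and was picked for description after its values were seen. Its levels were 9.45, 9.63, 8.96 and 8.82 in MA and 10.63, 10.56, 10.17, 10.15 and 9.86 in Old, without overlap, and Old mouse 2 was the highest of all. The difference of 0.96 (SE 0.22) had an adjusted p of 0.142 here and of 0.0549 in the authors' values (0.80). The Young WT mean was 9.10, and Old minus Young WT was 0.98 (limma adjusted p = 0.027). The Rage-/- difference from MA to Old was 0.27.

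The promoters of this gene pair are shown because Ankrd1 and Ankrd23 stood higher together in the Old mice. The windows of 300 bases cover each start in RefSeq (GRCm38.p6, minus strand), Ankrd1 at chr19:36119795-36120094 and Ankrd23, with 2 starts, at chr1:36536507-36536806 and chr1:36535690-36535989. Capitals mark the M-CAT element, searched as CATTCC or its reverse complement GGAATG, to which TEAD transcription factors bind in muscle genes.

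Ankrd1: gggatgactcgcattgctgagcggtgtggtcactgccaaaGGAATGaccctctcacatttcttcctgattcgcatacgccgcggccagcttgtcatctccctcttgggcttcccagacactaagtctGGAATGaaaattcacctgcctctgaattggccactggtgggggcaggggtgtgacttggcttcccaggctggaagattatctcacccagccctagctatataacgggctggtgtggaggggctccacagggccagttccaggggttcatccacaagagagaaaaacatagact

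Ankrd23, upstream start: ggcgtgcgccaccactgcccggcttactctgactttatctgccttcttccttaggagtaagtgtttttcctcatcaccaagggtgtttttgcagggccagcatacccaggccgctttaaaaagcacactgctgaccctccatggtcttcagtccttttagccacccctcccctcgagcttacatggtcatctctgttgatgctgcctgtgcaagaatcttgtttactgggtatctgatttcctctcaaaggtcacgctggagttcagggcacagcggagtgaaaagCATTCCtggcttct

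Ankrd23, downstream start: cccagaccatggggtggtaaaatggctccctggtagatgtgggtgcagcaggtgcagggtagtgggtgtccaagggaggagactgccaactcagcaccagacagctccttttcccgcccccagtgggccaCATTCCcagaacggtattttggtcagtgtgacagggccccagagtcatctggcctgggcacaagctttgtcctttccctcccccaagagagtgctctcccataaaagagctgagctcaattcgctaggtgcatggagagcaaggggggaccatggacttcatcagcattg

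The Ankrd1 window held the element at 2 places, at -210 and -123 from the start, and each Ankrd23 window held it at 1 place, at 36 from the upstream start and at -120 from the downstream one. The element was present in 4817 of the 32851 promoter windows (14.7%). No window of this pair held the exact letters TATAAA or TTTATA, which 13.6% of all windows did. That search took no variants, such as the tatataa in the Ankrd1 window, so it does not show that a TATA box is absent. These matches are a description of the sequence only.

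Of the other probes that were higher in the authors' values, 1 was for Ffar3, the G protein-coupled receptor of short-chain fatty acids. Ffar3 read 7.28, 6.38, 5.68 and 6.62 in MA, where mouse 3 was not detected, and 8.34, 8.74, 8.87, 8.98 and 8.86 in Old. The groups did not overlap, and Old mouse 2 lay above every MA mouse too. The rise was 0.48 in the authors' values (limma adjusted p = 0.0342), and the difference was 1.15 (SE 0.24, adjusted p = 0.123) in the values normalized here. Ets1, a transcription factor of endothelial and lymphoid cells, read 8.56, 7.84, 7.51 and 7.13 in MA and 9.18, 9.91, 9.61, 9.82 and 9.59 in Old, a rise of 0.52 in the authors' values (adjusted p = 0.0477; 0.90, SE 0.20, adjusted p = 0.131 here). Sumo2, the small ubiquitin-like modifier 2, read 9.81, 9.23, 8.51 and 8.99 in MA and 10.31, 10.96, 10.87, 10.85 and 10.75 in Old. It rose by 0.56 in the authors' values (adjusted p = 0.00722) and differed by 0.63 (SE 0.14, adjusted p = 0.123) here. Neither Ets1 nor Sumo2 overlapped between the groups, and both were higher in each Old mouse, mouse 2 included. Tmem150a, a transmembrane protein gene, was different: Old mouse 2, at 9.20, was above the MA range of 8.03 to 8.32, and the other 4 Old mice read 7.89 to 8.28, within that range or below it. Its rise of 0.42 in the authors' values (adjusted p = 0.0247) was thus a call that depended on the adjustment. The sixth probe had no gene annotation.

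Of the 14 probes that were lower in the authors' values, 13 had a gene. Ybx1, which encodes a cold-shock protein that binds mRNA and DNA, read 13.87 to 14.20 in MA and 13.29, 13.42, 13.34, 13.34 and 13.31 in Old. The Old mice lay within a narrow band, with mouse 2 at its lower end, and none reached the MA range. Ybx1 fell by 0.51 in the authors' values (limma adjusted p = 0.00698) and differed by -0.40 (SE 0.12, adjusted p = 0.248) here, against 0.11 in Rage-/- mice. Ttll1, a tubulin polyglutamylase, read 9.72, 9.89, 10.09 and 9.63 in MA and 8.58, 8.72, 8.40, 8.02 and 8.35 in Old. It fell by 0.56 in the authors' values (adjusted p = 0.0247) and differed by -0.87 (SE 0.18, adjusted p = 0.123) here, again without overlap.

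Atp5g3, a gene for subunit c of the ATP synthase ring, read 14.94, 14.82, 14.75 and 14.94 in MA and 14.51, 13.80, 14.70, 14.33 and 14.15 in Old. The groups did not overlap, although Old mouse 4 came close to MA mouse 3. Atp5g3 fell by 0.58 in the authors' values (adjusted p = 0.037; -0.56, SE 0.17, adjusted p = 0.264 here). Rbfa, a factor of mitochondrial ribosome assembly, read 10.77 to 11.03 in MA, 10.34 in Old mouse 2 and 9.40 to 9.49 in the other Old mice, and fell by 0.39 in the authors' values (adjusted p = 0.00722). Lias, the mitochondrial lipoic acid synthase, fell by 0.36 in them (adjusted p = 0.0449), and Ccdc90b, a mitochondrial coiled-coil protein related to the regulator of the calcium uniporter, by 0.43 (adjusted p = 0.037). The Ccdc90b groups overlapped, and without surrogate variables its difference was -0.16. The remaining named genes that were lower in the authors' values were Erp29, an endoplasmic reticulum chaperone, Faap100 of the Fanconi anaemia core complex, Babam1 of the BRCA1-A complex, Bloc1s5 of lysosome-related organelles and Zfp36l1, which promotes decay of AU-rich mRNA. They fell by 0.34, 0.29, 0.28, 0.32 and 0.47. None of these genes was called in the values normalized here, where their differences ran from -0.40 for Erp29 to -0.62 for Zfp36l1, and the last of the 14 probes had no gene annotation.

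**Figure D2:**
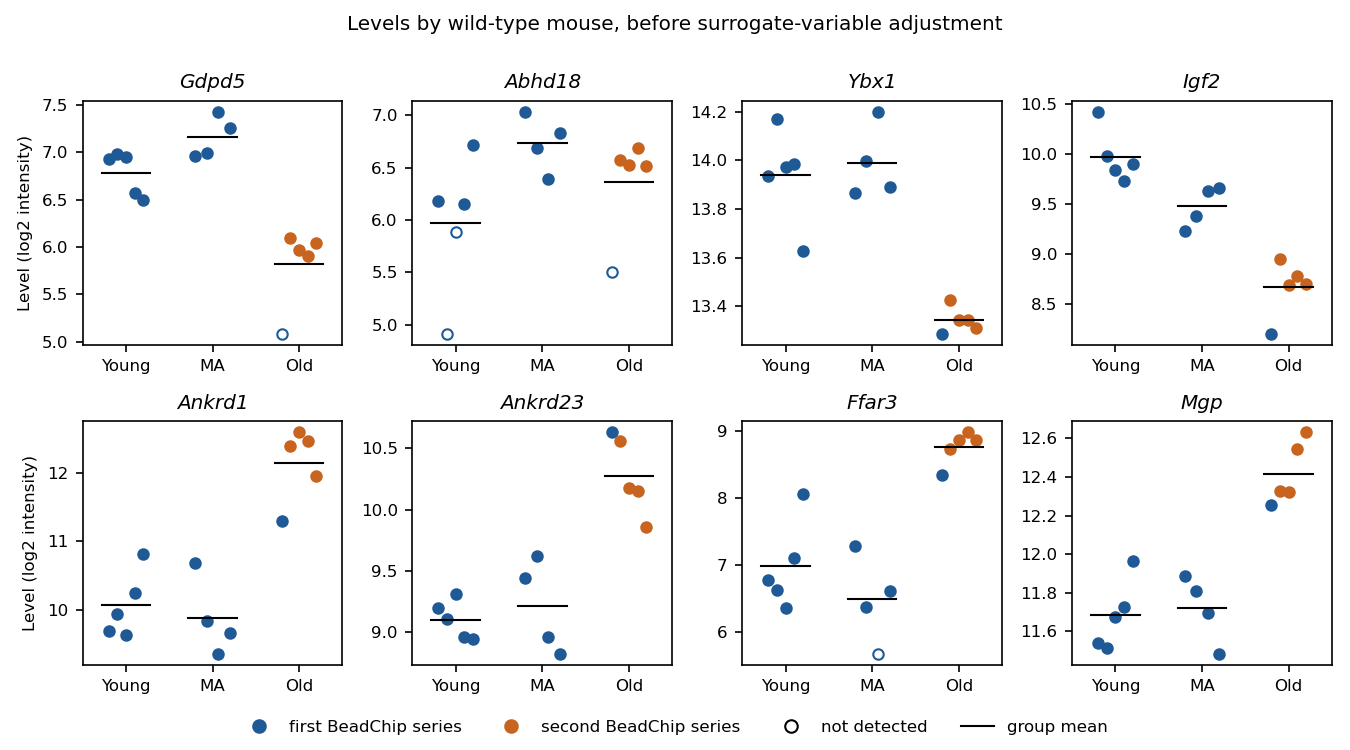
Level (log2 intensity, y axis, each panel on its own scale) of 8 genes in each Young, MA and Old WT mouse, with the first BeadChip series in blue, the second in orange, open circles where the probe was not detected and a line at the group mean. Gdpd5, Ybx1 and Igf2 are lower and Ankrd1, Ankrd23, Ffar3 and Mgp higher in all Old than in all MA mice, Old mouse 2 (blue) included, while the called probe of Abhd18 overlaps between the groups.

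The number of calls changed most with the handling of the array differences. Without surrogate variables 3986 probes were called (30%), 2136 higher (16.1%) and 1850 lower (13.9%). With BeadChip as a random block, with BeadChip as a fixed block or with signal over background as a covariate, the last added after the data were seen, limma called 0 probes, with 2400 (18.1%), 1003 and 862 at an unadjusted p < 0.05. Old mouse 2 alone against the 4 MA mice, both of the first series, gave 3 calls (0.0226%), all lower, which were for Gdpd5, Ifitm1 and Birc2. In that fit Old WT is 1 mouse and is assumed to vary like the other groups, so that the calls compare that mouse with the MA mice. Leaving out 1 mouse of the comparison gave 0 or 1 call, except that 57 probes were called without MA mouse 1, 35 higher and 22 lower.

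**Figure D3:**
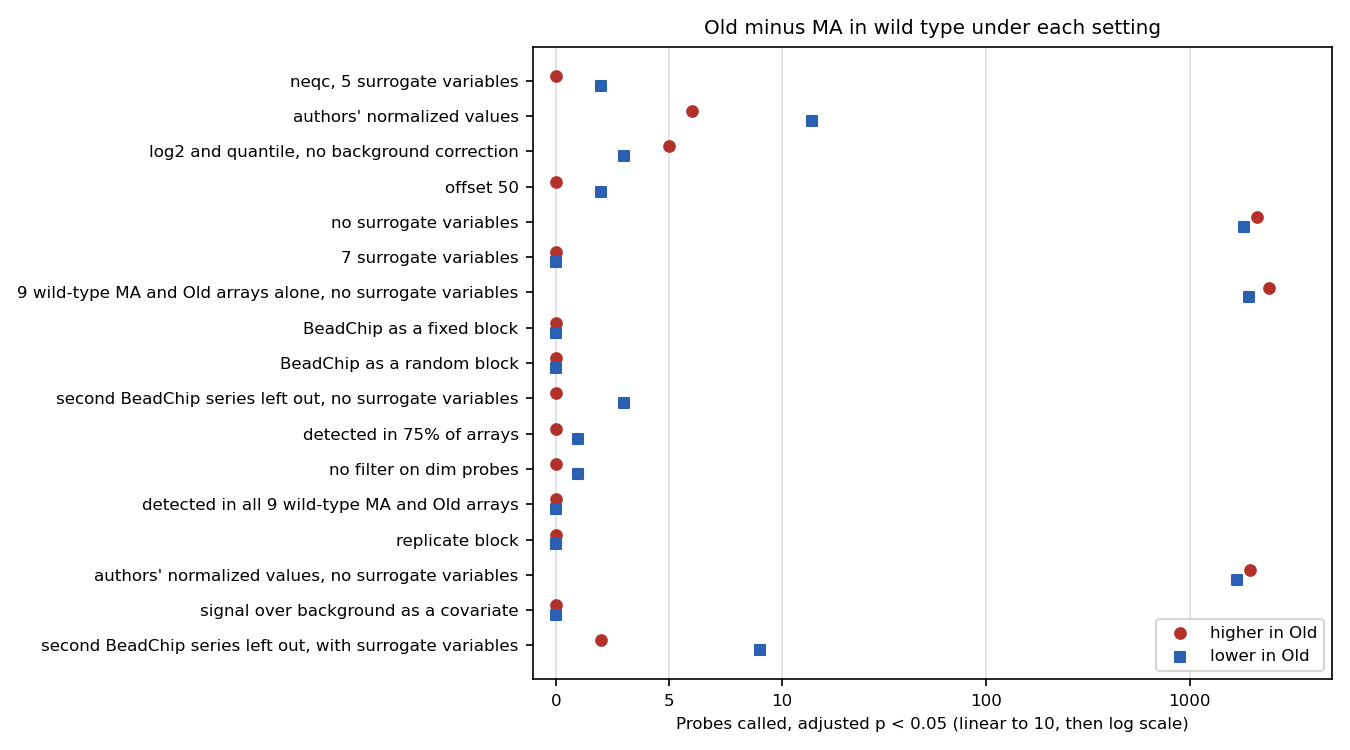
Number of probes called higher (red circles) and lower (blue squares) in Old than in MA WT mice at an adjusted p < 0.05 under each setting that keeps all 9 mice or leaves out a BeadChip series (x axis, linear to 10, then log scale). The counts lie between 0 and 14 in either direction with surrogate variables, a BeadChip block, the signal covariate or the first series alone, and between 1699 and 2451 where all Old mice entered without an adjustment.

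None of the 57 gene lists described next held a called gene. Each list is given by its measured genes, each with its brightest probe, by those at an unadjusted p < 0.05 and by the median difference. Over all 8189 genes, 872 (10.6%) were at that level, 366 higher (4.47%) and 506 lower (6.18%), and the median difference was -0.02. Higher and lower refer to that unadjusted level here, and no gene named from a list passed the adjusted test in the values normalized here. Of the 872 genes, 113 (13%) had the opposite sign without surrogate variables, and 262 (30%) moved by over 1.5 times without Old mouse 2.

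The contractile genes had a median difference near that of all genes, of which 10.6% were at an unadjusted p < 0.05. Of 21 sarcomere and Z-disc genes, 1 was higher (Tpm1, alpha-tropomyosin, 0.41) and 2 were lower (Myom2, the M-band protein myomesin 2, -0.52, and Mylk3, the cardiac myosin light chain kinase, -0.69), with a median of 0.04. All 3 overlapped between the Old and MA mice before adjustment. The 2 brightest genes of the list, Myl2 and Tnnc1, which encode the ventricular regulatory light chain and cardiac troponin C, were not among them (Myl2, -0.20). In the 14 genes of the fetal and stress programme the median was 0.10, and Ankrd1 was the 1 gene at an unadjusted p < 0.05.

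The 19 calcium handling genes had a median of -0.03 with 2 higher and 2 lower. Both of the latter act in the sarcoplasmic reticulum. Atp2a2, the gene of SERCA2, read 14.86, 14.75, 14.73 and 14.73 in MA, 14.63 in Old mouse 2 and 13.95 to 14.03 in the other Old mice, a difference of -0.43 (SE 0.15, adjusted p = 0.284). Casq2, the calcium-storing calsequestrin of that compartment, read 11.10, 11.85, 12.05 and 11.40 in MA and 10.42, 10.75, 10.66, 10.83 and 10.63 in Old, a difference of -0.47 (SE 0.18, adjusted p = 0.352). Neither gene overlapped between the groups. Old mouse 2 was the nearest to the MA mice for Atp2a2 and the farthest for Casq2. The higher ones were S100a1 (0.48), whose protein binds SERCA2 and the ryanodine receptor, and Atp2b1, a calcium pump of the plasma membrane, which differed by 0.85. Atp2b1 differed by 0.39 without Old mouse 2 and by 1.54 without MA mouse 1. None of 20 ion channel and gap junction genes reached an unadjusted p < 0.05 (median 0.02; Gja1, connexin 43, -0.21).

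The respiratory chain as a whole was close to the median of all genes, at 0.05 for 34 subunits of complex I, -0.03 for 23 genes of complexes II to IV and 0.06 for 15 of the ATP synthase. The complex IV subunits Cox5b (0.39), Cox6a1 (0.31) and Cox7a1 (0.58) were higher at an unadjusted p < 0.05, and their Old mice lay above their MA mice. For Cox5b and Cox6a1, Old mouse 2 stood apart from the other Old mice and near the MA mice. Within the ATP synthase, Atp5pb (0.35) and Atp5l (0.53) were higher and Atp5g3 (-0.56) and the inhibitory factor gene Atpif1 (-0.45) lower, in the fit of all mice. Without Old mouse 2, Atp5pb was at 0.19 and Atpif1 at -0.16. Atpif1 read 13.12 to 13.53 in MA and 12.33 to 12.54 in Old, mouse 2 at 12.45. Cox10, which makes the haem of complex IV, read 11.56 to 11.89 in MA and 11.12 to 11.31 in Old (-0.55, SE 0.14, adjusted p = 0.147) and is taken up again below.

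Fuel metabolism gave few differences. Of 37 genes of fatty acid uptake and oxidation, none was higher and 2 were lower, the auxiliary beta-oxidation enzymes Eci2 (-0.35) and Decr1 (-0.51), and the median was 0.02. Decr1 read 10.11 to 10.49 in MA, 10.09 in Old mouse 2 and 8.70 to 8.89 in Old mice 3 to 6, so that its gap followed the BeadChip series. The 16 tricarboxylic acid cycle genes and the 4 genes of ketone body metabolism had none at this level. In glycolysis, Pfkp, the platelet-type phosphofructokinase (0.89), and Pgam1, a phosphoglycerate mutase (0.75), were higher and Tpi1, triose phosphate isomerase (-0.24), lower among 19 genes. Pfkp differed by 0.27 without Old mouse 2 and by 1.58 without MA mouse 1.

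Among 17 genes of triglyceride and cholesterol synthesis, 3 were higher, which were Scd1, the stearoyl-CoA desaturase, Insig1, which holds the sterol sensor in the endoplasmic reticulum, and Dgat1, which makes triglyceride from diacylglycerol (0.86, with overlapping groups). Srebf2, the transcription factor of sterol synthesis, was lower. Scd1 read 6.61, 7.38, 6.64 and 6.52 in MA and 7.84, 7.40, 8.15, 7.52 and 7.26 in Old, with 1 Old mouse inside the MA range (1.28, SE 0.45, adjusted p = 0.294). Insig1 read 6.25, 6.06, 5.61 and 5.97 in MA and 6.88 to 7.21 in Old (0.74, SE 0.32, adjusted p = 0.41). Srebf2 read 5.89 to 6.50 in MA and 5.03 to 5.85 in Old (-0.66, SE 0.27, adjusted p = 0.384). The last pair did not overlap between the groups.

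Matrix genes had medians above that of all genes, at 0.21 for 14 collagens, 0.22 for 21 matricellular and basement membrane genes, 0.15 for 14 genes of collagen processing and 0.11 for 10 matrix proteases and inhibitors. In the authors' values these medians were 0.08, 0.07, 0.06 and 0.07. For collagen processing the median was -0.03 without surrogate variables and 0.01 with a random BeadChip block. In these lists 4 genes passed an unadjusted p < 0.05, all higher. Col4a2, a chain of the collagen IV of basement membranes, read 9.60, 9.89, 9.23 and 9.21 in MA and 10.45, 10.28, 10.10, 10.16 and 10.16 in Old (0.60, SE 0.23, adjusted p = 0.35). Lum, the collagen-binding proteoglycan lumican, read 9.01, 7.88, 7.32 and 7.54 in MA and 9.10, 10.26, 9.69, 10.09 and 9.93 in Old (0.66, SE 0.20, adjusted p = 0.263). The groups stood apart for both, although Old mouse 2 exceeded MA mouse 1 by little for Lum. Fbln1, fibulin 1, read 9.93 to 10.19 in MA and 10.56 to 10.76 in Old (0.42, SE 0.16, adjusted p = 0.347). Lama2, the laminin alpha 2 chain around muscle fibres, was detected in 1 MA mouse and in all Old mice (0.81, adjusted p = 0.286). In the TGF-beta and BMP list of 24 genes, Tgfb2 and Ltbp4 were higher (0.91 and 0.55) and Ltbp1 lower (-1.0), with a median of 0.04. Ltbp1 was not detected in Old mouse 2, at 5.23, while the other Old mice read 7.12 to 7.28 against 6.61 to 7.12 in MA, so that its negative difference came with the adjustment and was -0.07 without surrogate variables.

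The marker genes of the cells that make the matrix and the vessels had medians of a similar size. The median was 0.22 for 13 fibroblast markers (range -0.24 to 0.66), with Lum, Fbln1 and Dpt higher. It was 0.21 for 13 endothelial markers (range -0.42 to 0.91), with Pecam1, Cdh5 and Tie1 higher. Not all markers rose: the brightest fibroblast marker, Dcn, differed by -0.14 and the endothelial Flt1 by -0.23. The brightest endothelial markers, Egfl7 and Cav1, differed by 0.12 and 0.10. Pecam1 read 7.41 to 8.16 in MA, 8.38 in Old mouse 2 and 9.21 to 9.46 in the others (0.39, SE 0.16, adjusted p = 0.381). Tie1, an endothelial receptor tyrosine kinase, was not detected in any MA mouse and was detected in all Old mice at 6.22 to 7.18, at least 1.92-fold higher in the levels before adjustment. The adjusted fit gave a difference of 0.91 (adjusted p = 0.205). As array signal was higher in Old mice 3 to 6, the part of that signal in the detection of dim genes was not tested. The mean fibroblast level, centred per gene, was 0.09 to 0.27 in Old and -0.48 to 0.05 in MA before adjustment. The endothelial one was 0.03 to 0.28 against -0.22 to -0.06, without overlap for either. Such gaps were not particular to these lists. The glycolysis, autophagy and complement lists stood apart in the same direction, and the ion channel list in the other. The 9 cardiomyocyte markers had a median of -0.07 and the 10 smooth muscle and pericyte markers one of 0.03. The lists are not separate, as Lum, Fbln1 and Dcn belong to both the fibroblast and the matricellular lists. The part of fibroblast and endothelial markers in the matrix values was not tested.

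The genes of the immune lists at an unadjusted p < 0.05 are to be read beside the 10.6% of all genes at that level. The 34 interferon-inducible genes had a median of -0.21 with none higher and 4 lower, which were Igtp and Irgm2, immunity-related GTPases, Dhx58, a sensor of viral RNA, and the transcription factor gene Stat2. Igtp read 8.08, 9.12, 7.80 and 8.91 in MA and 7.39, 7.72, 7.62, 7.12 and 7.45 in Old, without overlap (-1.24, SE 0.39, adjusted p = 0.268). The Young WT mean of Igtp was 10.7, above both. In Old mouse 2 alone against MA the list median was 0.12, of the opposite sign, and in Rage-/- mice from MA to Old it was 0.34. For class I antigen presentation 3 of 16 genes and for class II 2 of 9 were lower, none higher, and the medians were -0.20 and -0.26. Without surrogate variables both medians were positive, at 0.30 and 0.20, and with a random BeadChip block they were 0.08 and 0.06. Among 12 complement genes C1qc, a chain of the recognition molecule C1q that macrophages make, was higher (0.64). It read 7.79, 7.63, 6.64 and 7.46 in MA and 8.25 to 8.70 in Old, while the 14 macrophage markers had a median of -0.01 (0.34 without surrogate variables). In the chemokine list Csf1 (0.72) and Tnfsf10 (0.52) were higher and Ccl7 (-1.07) lower among 22. Csf1, the macrophage growth factor, read 7.61 in Old mouse 2 and 5.78 to 6.17 in the others, against 6.03 to 6.52 in MA, and without that mouse its difference was 0.44. The 11 measured RAGE ligands and related genes had a median of -0.16, with S100a1 and S100a11 (0.50) higher and Diaph1 (-0.55), whose product binds the tail of the receptor, lower.

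Immediate early genes, which respond within minutes to handling, stretch or hormones, had the second lowest list median, -0.57 over 19 genes. Fos, Egr3, Klf10 and Dusp1 were lower at an unadjusted p < 0.05. Egr3 read 9.30, 6.07, 4.48 and 9.34 in MA and 4.72, 7.30, 6.66, 5.97 and 7.31 in Old. Fos read 9.54, 6.49, 6.29 and 9.23 in MA and 5.18, 9.02, 9.23, 8.84 and 9.11 in Old. For both genes MA mice 1 and 4 were high and MA mice 2 and 3 low, and Old mouse 2 was the lowest Old mouse, so that the groups overlapped. The fitted differences were -2.31 for Egr3 (SE 0.89, adjusted p = 0.346) and -1.62 for Fos (adjusted p = 0.42). Without surrogate variables the Fos difference was 0.39 and the list median 0.00. The 15 clock genes (median -0.20) and the 15 glucocorticoid-responsive genes (-0.08) contained 0 and 2 at this level, but Old mouse 2 alone gave -0.87 and -0.86. The hour of death of each mouse is not given in the sources used here.

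Protein quality control and translation were near the overall median, from -0.11 for 27 proteasome and ubiquitin genes to 0.07 for 35 genes of the cytosolic ribosome, and no list among heat shock, unfolded protein response, NRF2, autophagy and mitochondrial ribosome had more than 4 genes at an unadjusted p < 0.05. In the senescence and DNA damage list of 21 genes, Igfbp7, a secreted IGF-binding protein-related factor (0.52), and Phlda3, a p53 target (0.85), were higher, and Sirt3, the mitochondrial deacetylase (-0.42), was lower. Igfbp7 read 10.77 to 11.38 in MA and 11.84 to 12.07 in Old. Grk5, the kinase that desensitizes beta-adrenergic receptors, was higher (0.71) among 13 genes of that pathway. The reference genes used by the study for RT-qPCR, Hprt and Ldha, differed by -0.08 (adjusted p = 0.9) and -0.06 (adjusted p = 0.932). Without surrogate variables the Hprt difference was 0.65.

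**Figure D4:**
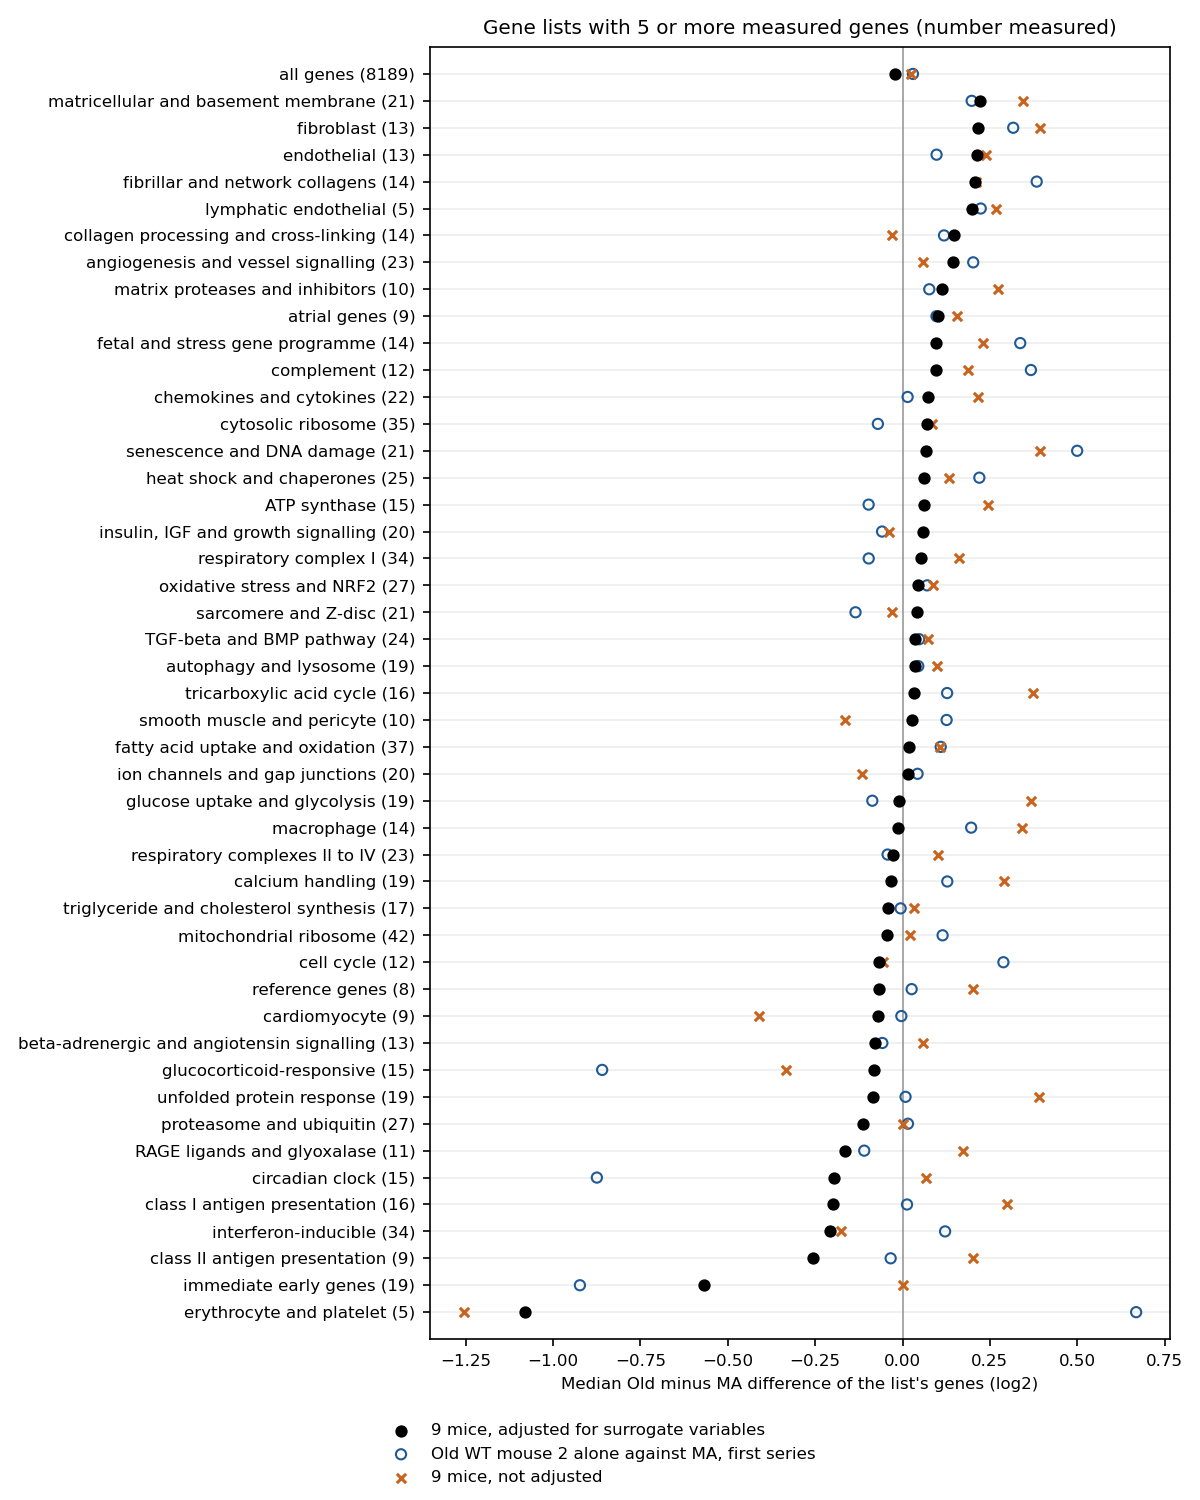
Median Old minus MA difference (log2, x axis) of each list with 5 or more measured genes, in all 9 WT mice with surrogate variables (black), in Old WT mouse 2 alone against the MA mice (open blue) and in all 9 mice without adjustment (orange crosses). Matrix, fibroblast and endothelial lists lie at 0.11 to 0.22 in black and above 0 in blue, although collagen processing is at -0.03 in orange, whereas the erythrocyte list changes from -1.08 in black to 0.67 in blue.

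Blood and atrial tissue varied between mice in both groups. The 5 erythrocyte and platelet genes had the lowest median, -1.08. Hbb-bs, a beta-globin gene, read 14.25, 13.93, 13.23 and 13.24 in MA and 14.44, 11.78, 12.15, 11.08 and 11.50 in Old (-1.08, adjusted p = 0.557). Old mouse 2 was thus the highest and the other Old mice the lowest, so that the gap lay between the BeadChip series. The 9 atrial genes had a median of 0.10 with none at an unadjusted p < 0.05. Nppa, the atrial natriuretic peptide, read 12.57 to 13.51 in MA and 12.87 to 13.24 in 4 Old mice, with Old mouse 5 apart at 14.82. Myl4, the atrial light chain, was lowest in MA mouse 4, at 8.31, and 10.57 to 12.49 in the other mice.

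The change from 12 to 21 months was also compared between WT and Rage-/- mice, a contrast in which BeadChip and signal were not balanced. Old Rage-/- mice 1 to 4 were on a BeadChip of the first series, and Old Rage-/- mice 5 and 6 on the second series. Their signal over background was 2.17 to 4.12 and 10.2 and 7.65, against 2.72 to 3.38 in MA Rage-/- mice. No BeadChip held both an Old and an MA Rage-/- mouse, so BeadChip and this difference cannot be told apart directly. In Rage-/- mice 1 probe was called from MA to Old (0.00753%). The difference between the changes was called for 20 probes (0.151%), 15 (0.113%) with a more positive change in WT and 5 (0.0377%) with a more negative one, and for 29 (0.218%) in the authors' values, with 12 probes in both. Fbp2, the muscle fructose-bisphosphatase, read 9.50, 9.26, 9.99 and 9.68 in MA and 9.96, 9.34, 9.48, 9.22 and 9.26 in the Old WT mice, which overlapped. In Rage-/- mice it read 9.94 to 10.30 in MA and 8.22 to 9.69 in Old, without overlap. In the adjusted fit the changes of 0.37 and -0.87 differed by 1.24 (SE 0.23, limma adjusted p = 0.034, and 0.00685 in the authors' values). The positive WT value exists only after adjustment, as the WT means were 9.45 in Old and 9.61 in MA and the difference without surrogate variables was -0.16.

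Ssbp1, the mitochondrial single-stranded DNA-binding protein, differed by 0.71 in WT, from 7.67 to 8.51 in MA to 8.40 to 9.20 in Old, and by -0.51 in Rage-/- mice, so that the changes differed by 1.22 (SE 0.23, adjusted p = 0.0351, and 0.00685 in the authors' values). For 1110038F14Rik the changes were 0.55 and -0.81 (difference 1.36, SE 0.26, adjusted p = 0.0351), and without Old mouse 2 the WT change was 0.08. For Rab18, a small GTPase of lipid droplets and the endoplasmic reticulum, they were 0.80 and -0.59 (difference 1.39, SE 0.24, adjusted p = 0.0322; WT change 0.53 without Old mouse 2), with 3 of 4 MA WT mice not detected. Trim30a, an interferon-inducible gene (difference -1.63, SE 0.28, adjusted p = 0.0322), was not detected in any of the 4 MA Rage-/- mice, and Lypd2 (difference -1.27, SE 0.25, adjusted p = 0.0385) was detected in 0 of 4 MA and 1 of 6 Old Rage-/- mice, so that part of each contrast lay at background. The calls on Trim30a and Rab18 were not made in the authors' values (adjusted p = 0.0946 and 0.112). Without Old WT mouse 2, without MA Rage-/- mouse 3 or with a random BeadChip block, limma called 0 probes for this difference, with 972, 1437 and 247 at an unadjusted p < 0.05.

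Genes that moved alike in both genotypes were picked after their values were seen, as those with an unadjusted p < 0.01 in both (limma). There were 26 of 8189 (0.317%), all in the same direction in WT and Rage-/- mice. Both differences came from 1 fit with shared surrogate variables. Old WT mice 3 to 6 and Old Rage-/- mice 5 and 6 were on the second BeadChip series, and the remaining Old mice on the first. The 2 signs are therefore not independent, and their agreement is a description only. Igf2, the fetal growth factor insulin-like growth factor 2, read 9.23, 9.38, 9.63 and 9.66 in MA and 8.20, 8.95, 8.68, 8.78 and 8.70 in the Old WT mice, with a Young WT mean of 9.97. No Old mouse reached the MA range and Old mouse 2 was the lowest. The difference was -0.69 (SE 0.19, limma adjusted p = 0.205), against -0.80 in Rage-/- mice, and was -0.37 without Old mouse 2, while Old minus Young WT was -1.16 (adjusted p = 0.0013). Mgp, matrix Gla protein, an inhibitor of vascular calcification, read 11.89, 11.81, 11.69 and 11.48 in MA and 12.25, 12.33, 12.32, 12.54 and 12.63 in the Old WT mice. It differed by 0.47 (SE 0.16, adjusted p = 0.277) and by 0.54 in Rage-/- mice, again with every Old WT mouse above every MA mouse.

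Myl6, the light chain of smooth muscle and non-muscle myosin, read 10.27, 10.01, 9.90 and 9.66 in MA and 10.72, 11.05, 10.87, 10.95 and 10.99 in the Old WT mice (0.61, adjusted p = 0.16, and 0.46 in Rage-/- mice). Tagln2, an actin-binding protein, differed by 0.52 and 0.53, and Dgkq, a diacylglycerol kinase, by 0.56 and 0.57. On the lower side were Cox10 (-0.55 and -0.45), Tubg1, gamma-tubulin of the centrosome (-0.69 and -0.48), and Jmjd8 (-0.46 and -0.45). Dlgap1, a scaffold protein gene of the postsynaptic density, was the 1 gene called in Rage-/- mice (1.35, limma adjusted p = 0.00452). It was not detected in any MA Rage-/- mouse, so that this value is set against background. In WT it was not detected in any MA mouse either, where it read 4.64 to 5.48. It read 5.64 to 6.02 in the Old WT mice, so that no fold is given. None of these genes was called from MA to Old in WT.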

How the data were processed

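Left ventricular RNA of 29 mice was hybridized to Illumina MouseWG-6 v2.0 BeadChips, 1 array per mouse. The authors deposited bead intensity per probe, exported from GenomeStudio 2011.1 without background correction, with a detection score that rises with intensity and was therefore read as 1 minus the detection p. The log2 values deposited by the authors had been variance-stabilized and robust spline normalized with lumi in R 4.0.2. The rule of the comparison names that normalized matrix. Its 13277 probes, those with detection p < 0.01 in at least 25% of arrays, were tested here after normexp background correction from the detection p, quantile normalization and log2 with an offset of 16 (neqc), and the authors' log2 values were fitted beside them. Limma 3.58.1 in R 4.3.3 was fitted to 6 groups with the first 5 of 7 surrogate variables, leaving 18 residual degrees of freedom. The groups were protected in the estimate by weights on the probes, so that the variables could still vary with group. P values were two-sided and adjusted by Benjamini-Hochberg over all probes, called under 0.05. Of the probes, 11504 had 1 gene symbol, 6 several and 1767 none, and the 8189 genes are each given by their brightest probe. Gene names and promoters came from the platform annotation and RefSeq (GRCm38.p6).

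The members and the gene lists were chosen with earlier results of these data known. Named genes were the largest differences among called genes without overlap, up to 4 called or the 2 brightest members of each list, up to 6 called for a change alike or different in Rage-/- mice, and Hprt and Ldha, and others are said to be chosen after their values were seen. The genes called only in the authors' values, and list members at an unadjusted p < 0.05, were also chosen after their values were seen. Alternatives were the authors' values, log2 and quantile without background correction, an offset of 50, no or 7 surrogate variables, the WT mice alone, BeadChip as a fixed or random block, the second series left out, other detection filters, each mouse left out and the replicate number as a block. Chosen after seeing the data were the authors' values without surrogate variables, signal over background as a covariate, and the second series left out with surrogate variables. The number of arrays limits the precision. The fit with surrogate variables was tested on simulated data with noise that was independent between arrays. Those data held no further BeadChip or series effect, so that the test does not cover one. The lists were not tested as sets.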

Additional observations from a re-analysis of the deposited data

Results flagged for a closer look

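Within groups of 4 or 5 mice, a mouse was looked at again where its gap to the nearest other mouse exceeded Dixon's 95% limit, which chance alone exceeds in about 1 of 20 groups. Of the 390 groups tested, 52 were marked, and in 39 of these the mouse that stood apart was Old WT mouse 2, the only Old WT mouse of the first BeadChip series. Its array had a signal over background of 3.86, against 9.34 to 10.1 in the other Old WT mice, and 10903 detected probes, against 14208 to 15087.

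Old mouse 2 was above the other 4 Old mice for 20 genes, which were Acacb (11.74), Alas2 (7.80), Atp2a2 (14.63), Atp2b1 (6.85), Ccnd1 (11.30), Cox6a2 (14.90), Csf1 (7.61), Decr1 (10.09), Erp29 (10.89), Faap100 (8.16), Flt1 (11.06), Igfbp5 (11.42), Irgm1 (11.25), Klf10 (5.97), Lias (10.57), Mrps34 (12.27), Myl1 (12.46), Prf1 (8.09), Rbfa (10.34) and Rpl23 (14.17), with the log2 level in parentheses. It was below them for 17 genes, Atp5l (13.32), Cox5b (14.13), Cox6a1 (10.56), Cxcl12 (11.17), Dbp (9.95), Diaph1 (4.54), Dpt (8.44), Ebf1 (5.89), Fos (5.18), Gdpd5 (5.09), Hprt (9.70), Ltbp1 (5.23), Pde1c (6.51), Pecam1 (8.38), Pmp22 (8.46), S100a1 (12.13) and S100a11 (9.53). Both sets hold subunit genes of complex IV, calcium handling genes and endothelial markers.

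Other mice stood apart for single genes. Among the Old mice, mouse 5 was high for Nppa (14.82) and mouse 3 low for Prkaca (10.79) and Rab18 (7.88). Among the MA mice, mouse 1 was low for Actb (12.18) and Irgm1 (10.89) and high for Kit (5.86), and mouse 2 was high for Cxcl12 (11.53) and Scd1 (7.38). MA mouse 3 was high for Lgals3 (9.16) and Ndufs6 (14.63). MA mouse 4 was high for Pde1c (8.05) and Trim30a (6.94) and low for Tnnc1 (14.44).

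The changes of 6 genes were looked at again because, from MA to Old, they differed between WT and Rage-/- mice in limma's test of that difference. The WT change minus the Rage-/- change was -1.63 for Trim30a (adjusted p = 0.0322), 1.39 for Rab18 (0.0322), 1.36 for 1110038F14Rik (0.0351), -1.27 for Lypd2 (0.0385), 1.24 for Fbp2 (0.034) and 1.22 for Ssbp1 (0.0351), each p adjusted over all probes. With BeadChip as a random block 0 probes were called for this difference by limma (247 at an unadjusted p < 0.05), and with it as a fixed block 1.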

How the results depend on the processing

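The 2 probes called from MA to Old in WT became 20 in the authors' values (6 higher, 14 lower), 8 with log2 and quantile without background correction (5 higher, 3 lower), 1 each (lower) with detection in 75% of arrays or no filter, and 0 with 7 surrogate variables, with detection in all 9 WT arrays and with a fixed or random BeadChip block (limma, 983 to 2400 probes at an unadjusted p < 0.05). Without surrogate variables there were 3986 (2136 higher, 1850 lower), in the 9 WT arrays alone 4407 (2451 higher, 1956 lower) and in the authors' values 3675 (1976 higher, 1699 lower). Signal over background as a covariate gave 0 and the first series with surrogate variables 11 (2 higher, 9 lower), where Old WT is 1 mouse assumed to vary like the other groups. Leaving out 1 mouse gave 0 to 57, 0 to 35 higher and 0 to 22 lower.

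The 20 probes called for a difference between the genotypes became 34 with log2 and quantile, 0 without surrogate variables, with a random BeadChip block or with signal as a covariate, 1 with a fixed BeadChip block or with the first series alone, 7 with the first series and surrogate variables and 6 in the authors' values without them. Leaving out 1 mouse gave 0 to 22.

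The replicate number as a block gave 0 calls for both questions, with 1138 and 1377 probes at an unadjusted p < 0.05. Same-numbered MA and Old mice 2, 3 and 4 had deviations that correlated at 0.14, -0.12 and 0.05, and the labels give no meaning to the numbers, so that they pair no mice.

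The direction of Gdpd5 turned with BeadChip as a fixed block, at 0.090. Without surrogate variables Hprt turned to 0.65 (0.53 in the authors' values) and Irgm1 to -0.66 (-0.66 in the WT arrays alone, -0.64 in the authors' values), and in the authors' values Cox4i1 turned to -0.50 and Ndufa13 to -0.48. Other named genes also changed sign under some settings, among them Rab18, which reached -0.90, Babam1, at 0.44, and Trim30a, at 0.40. The cause of these turns was not tested. No setting moved the median of all probes by more than 0.1. Dim probes are limited by signal over background, which was lower in all MA mice than in Old mice 3 to 6.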
